A study of Rattus norvegicus with 12 samples.

Results

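Lungs of monocrotaline (MCT) rats infused with TRV023, a β-arrestin-biased agonist of the angiotensin II type 1 receptor (AT1R), were compared with lungs of MCT rats infused with losartan, a blocker of the same receptor. The comparison used all genes listed both in the TRV023 table and in the losartan table, 17573 of the 19687 genes of the series, in 6 of its 12 libraries. The tested quantity was the read count per gene in 3 TRV023 libraries and 3 losartan libraries, with 1 library per rat. The direct question was where the lung transcriptome differed between a ligand that activates a single arm of AT1R signaling and a ligand that blocks both arms.

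AT1R responds to the peptide hormone angiotensin II (AngII) through heterotrimeric G proteins, mainly Gq, which release calcium and contract vascular smooth muscle, and through β-arrestins, adapter proteins that internalize the receptor and scaffold kinases such as ERK. A biased agonist engages β-arrestin with little G protein activation and so competes with AngII for the G protein arm, whereas a blocker such as losartan prevents both. TRV023 is a peptide analogue of AngII and losartan is a nonpeptide small molecule, so the compounds differ in class as well as in the arm they engage.

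All groups were rats of the MCT model, in which a plant alkaloid injures the lung endothelium and pulmonary hypertension follows, and the labels give an age of 9 weeks. TRV023 was given at 14.4 mg/kg/day, losartan at 10 mg/kg/day, and the vehicle group received phosphate-buffered saline, all by osmotic minipump after MCT at 60 mg/kg. The doses of the drugs therefore differ in mass per body weight, and equal receptor occupancy is not stated. The methods describe Sprague-Dawley males, and for histology and hemodynamics an infusion that began 1 week after MCT and lasted 2 weeks, but give no separate schedule for the sequenced lungs. There was no group without MCT, and each library came from about 10 mg of whole lung with all its cell types. Vehicle libraries (n = 3) are given beside them, and since both drugs share them, values relative to vehicle are placed side by side without a test between them. Libraries are named by group and animal number, as in Trv_917, Los_925 or Veh_923, and nothing says how animals were assigned to cages or pumps.

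Counted reads were 16106337 to 20096877 in the TRV023 libraries and 17192919 to 19792739 in the losartan libraries. Reads of the mitochondrial genome took 4.36%, 4.58% and 7.07% of counts in the TRV023 libraries and 5.11%, 7.36% and 10.02% in the losartan libraries, against 5.65% to 7.55% in vehicle. The losartan libraries were less alike than the TRV023 libraries. Over 10373 well expressed genes the median SD of log2 CPM (counts scaled to library size) was 0.187 within TRV023, 0.244 within losartan and 0.175 within vehicle. On the first principal component of the 6 libraries (29.8% of the variance) Los_964 lay at -33.3, against -13.4 to 17.4 for the TRV023 libraries and 13.6 and 16.2 for the other losartan libraries. On the second component (22.9%) the 3 TRV023 libraries lay at -18.2 to -6.74 and the 3 losartan libraries at -2.55 to 27.3. Several of the results that rest on Los_964 or Los_965 are given below with and without them, and others are not. Surfactant protein Sftpc, a defining marker of alveolar type 2 cells, was at 5224 to 9886 FPKM (fragments scaled to transcript length and library size) with TRV023 and 8899 to 16391 with losartan. Whether groups overlap was read from normalized CPM, as used in the fit.

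No gene passed an adjusted p of 0.05 between the drugs: edgeR called 0 of 15124 genes tested (0%), and the smallest adjusted p was 0.867. At an unadjusted p under 0.05, 342 genes (2.26%) were higher and 293 genes (1.94%) were lower with TRV023, 4.2% of the genes tested in all. DESeq2 called 26 of 16172 genes, 14 higher (0.0866%) and 12 lower (0.0742%), whereas limma-voom and limma on log2(FPKM + 1) called 0 each, with 628 and 549 genes at an unadjusted p under 0.05. All 3 TRV023 libraries lay above all 3 losartan libraries for 570 genes (3.77%) and below them for 620 genes (4.1%). The median log2 fold change of all genes tested was -0.01, and 48.4% of them were above 0.

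The half-width of the 95% interval of a log2 fold change had a median of 0.58 before adjustment for the number of genes, so an adjusted call needed a difference well above that size for a typical gene. All folds below are log2 fold changes of TRV023 over losartan with their SE from edgeR, unless another pair is named, and every gene named had an edgeR adjusted p of 0.9749 or higher. The words higher and lower therefore describe levels in these libraries, and a gene is said to be called only where DESeq2 called it. On simulated libraries of this sample size DESeq2 made more false calls than edgeR, 48 against 13. It also recovered more of the 50 genes changed at each fold, 50% against 28% at 2-fold and 94% against 84% at 4-fold. Most simulated 2-fold changes were thus missed by edgeR, so a lack of edgeR calls does not show equal levels. The DESeq2 calls are given as those of 1 tool, which edgeR and limma on the same 6 libraries did not share.

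**Figure D1:**
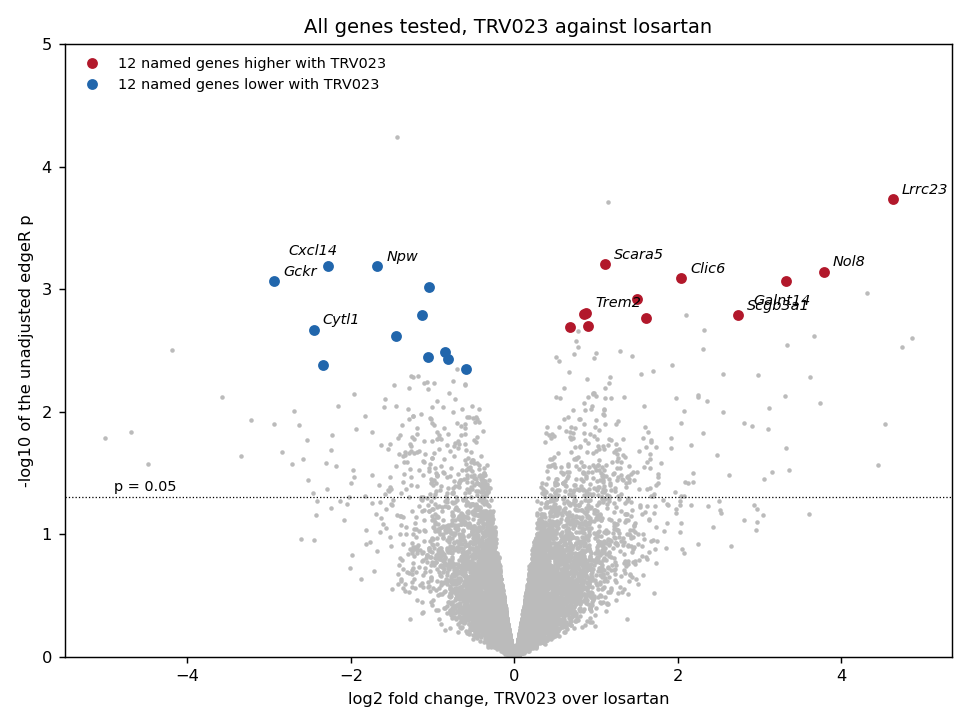
Log2 fold change of TRV023 over losartan (x axis) and -log10 of the unadjusted edgeR p (y axis) for all 15124 genes tested, with the 24 named genes whose groups do not overlap in color. Lrrc23 (4.63), Nol8 (3.79) and Galnt14 (3.32) lie farthest to the right among these 24 genes and Gckr (-2.94) and Cytl1 (-2.46) farthest to the left.

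Agtr1a, the gene of the receptor that both drugs bind, was higher with TRV023 than with losartan and was close to its vehicle level with TRV023. Its FPKM values were 35.1, 26.1 and 30.6 in TRV023 lungs, against 23.98, 22.2 and 23.2 in losartan lungs and 31.1, 34.7 and 35.1 in vehicle lungs. Every TRV023 library lay above every losartan library, and every losartan library lay below every vehicle library. The means were 30.6 ± 4.49 FPKM with TRV023, 23.1 ± 0.895 with losartan and 33.6 ± 2.19 with vehicle (SD, n = 3 each), and the log2 fold change of TRV023 over losartan was 0.36 (SE 0.16, 95% interval 0.0059 to 0.72). Relative to vehicle it was -0.13 (SE 0.15) with TRV023 and -0.49 (SE 0.13) with losartan. The deposited tables place Agtr1a on chromosome 17 from 37218834 to 37270540 on the minus strand, in a genome build that is not given in the sources used here. Agtr1b, the other type 1 receptor gene of rodents, and Agtr2, the type 2 receptor, were at 0.274 FPKM or less in all 6 libraries and were too low to be tested.

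The rest of the renin-angiotensin system had no gene at an unadjusted p under 0.05, but its intervals, as for Enpep (-1.24 to 0.22), do not show equal levels. Of 20 genes of the list, 19 gene models were in both tables and 15 were tested, with 9 above 0, 6 below 0 and a median of 0.01. Agtr1a alone was at an unadjusted p under 0.05 (6.67% of the list, against 2.26% higher among all genes). Agt, the hormone precursor, was at 5.14, 13.7 and 8.96 FPKM with TRV023 and 10.9, 12.2 and 10.96 with losartan (log2 fold change -0.35, SE 0.32). Of the enzymes that cut angiotensin peptides, Enpep was at -0.51 (SE 0.32), Anpep at -0.19 (SE 0.30), Mme at -0.23 (SE 0.20), Prcp at -0.20 (SE 0.14), Nln at 0.15 (SE 0.14) and Thop1 at 0.01 (SE 0.17). Prcp was the single gene of this list whose TRV023 libraries (29.3 to 35.7 FPKM) all lay below the losartan libraries (36.2 to 37.7 FPKM). The mast cell chymase Cma1 (0.46, SE 0.50) and the neutrophil protease Ctsg (1.02, SE 0.84), which can also form AngII, varied more within losartan than between the drugs, with Cma1 at 295, 46.6 and 138 FPKM in the losartan libraries. Agtrap, which binds the receptor tail, was at 0.02 (SE 0.21), the renin receptor Atp6ap2 at -0.14 (SE 0.14), and Mas1 and the tested model of Lnpep, both under 1 FPKM, at 0.80 (SE 1.04) and 1.02 (SE 0.88). A second Lnpep model was too low to be tested, and Ace was not analysed here.

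Transcripts of the β-arrestin arm itself did not separate the drugs. Arrb2 was at 40.5, 38.6 and 51.9 FPKM with TRV023 and 42.5, 41.4 and 40.6 with losartan, a log2 fold change of 0.03 (SE 0.16, 95% interval -0.34 to 0.40). Arrb1 was at 10.5, 17.1 and 10.6 FPKM with TRV023 and 22.1, 9.44 and 13.2 with losartan (-0.25, SE 0.30, interval -0.94 to 0.45). The groups overlapped for all 13 members tested, where 3.77% of all genes lay higher and 4.1% lower without overlap. None was at an unadjusted p under 0.05, against 2.26% higher and 1.94% lower among all genes. At these shares a list of 13 would hold few such genes or none, so the counts say little about these members. The receptor kinases that mark AT1R for β-arrestin were at -0.03 (Adrbk1, SE 0.16), -0.28 (Grk4, SE 0.24), -0.18 (Grk5, SE 0.14) and -0.05 (Grk6, SE 0.16). The arrestin-domain proteins Arrdc1, Arrdc2, Arrdc3 and Arrdc4 were at -0.12 (SE 0.21), 0.09 (SE 0.24), 0.24 (SE 0.28) and 0.13 (SE 0.32), and the endocytic machinery at -0.05 (Dnm2, SE 0.15), 0.03 (Ap2b1, SE 0.28) and 0.06 (Cltc, SE 0.17). The width of these intervals does not show that the levels were equal.

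Genes that report signaling downstream of the receptor also mostly overlapped between the drugs, which does not show equal levels. Of 26 genes of Gq and calcium signaling tested, 20 were below 0 with a median of -0.12, and none was at an unadjusted p under 0.05. Among all genes 2.26% were higher and 1.94% lower at that p, so a list of 26 would hold few. Plcb1, a phospholipase that Gq activates, was at 1.74, 1.52 and 1.70 FPKM with TRV023 and 4.69, 1.09 and 2.88 with losartan, so that Los_964 lay below the TRV023 libraries and the other losartan libraries above them. Among 15 RGS genes, whose products switch G proteins off, Rgs1 was at 69.8, 63.0 and 28.2 FPKM with TRV023 and 21.3, 36.9 and 14.1 with losartan (1.08, SE 0.43). Rgs2, which acts on Gq, was at 103, 98.7 and 106 FPKM with TRV023 and 71.9, 106 and 57.7 with losartan (0.32, SE 0.25). ERK feedback inhibitors had a median of -0.13 over 14 genes. Dusp4, an ERK phosphatase, was at 8.21, 9.09 and 5.38 FPKM with TRV023, below 11.48, 13.6 and 9.98 with losartan (-0.68, SE 0.28).

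The 24 immediate early transcription factors had a median of -0.18, with 9 above 0 and 15 below. The median depended on a single library, as it was 0.23 without Los_964. At an unadjusted p under 0.05, 1 member was higher and 1 lower (4.17% each, against 2.26% and 1.94% of all genes). Jun was at 144, 140 and 131 FPKM with TRV023 and 159, 185 and 179 with losartan (-0.38, SE 0.16), with no overlap. Klf4 was at 57.2, 58.8 and 57.7 FPKM with TRV023 and 55.2, 110 and 71.8 with losartan (-0.52, SE 0.28). The mean log2 CPM of the list, relative to the 9 libraries, was 0.22, 0.25 and -0.37 in the TRV023 libraries and -0.18, 0.78 and -0.28 in the losartan libraries, so Los_964 stood above all the others. In the EGF family, which AT1R can engage through shed ligands, the receptors Erbb2 and Egfr were at 0.60 (SE 0.27) and 0.64 (SE 0.40) and the sheddase Adam17 at -0.29 (SE 0.21), and the median over 13 genes was 0.00071.

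The study printed 13 genes as shared by the AngII and TRV023 groups, and most of these were higher with TRV023 than with losartan. The list was chosen on these samples for its TRV023 values, so its direction here is not independent evidence. Of 11 gene models tested, 9 were above 0, and the median was 0.86, against -0.01 for all genes. At an unadjusted p under 0.05, 6 were higher (54.5%, against 2.26% of all genes) and 1 was lower (9.09%, against 1.94%). The medians relative to the shared vehicle libraries were 0.88 with TRV023 and 0.14 with losartan.

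RGD1561306 was at 29.1, 34.8 and 33.0 FPKM with TRV023, against 14.9, 14.8 and 12.7 with losartan and 15.3, 15.5 and 16.2 with vehicle. The 3 groups were in order without overlap, TRV023 highest and losartan lowest, and the fold was 1.15 (SE 0.18, DESeq2 adjusted p = 0.00018). The tables name the gene by a project number only, on chromosome 4 from 212473338 to 212823540. Trem2, a lipid-sensing receptor of macrophages, was at 78.8, 73.7 and 86.0 FPKM with TRV023, 49.8, 44.8 and 31.3 with losartan and 50.6, 24.5 and 39.4 with vehicle (0.88, SE 0.19). Gdf15, a stress-induced cytokine, was at 74.0, 67.2 and 51.3 FPKM with TRV023 and 35.0, 53.2 and 42.2 with losartan, and here Trv_930 lay below Los_964 (0.50, SE 0.23, interval -0.03 to 1.03). Cd300a, an inhibitory receptor of myeloid cells, was at 41.7, 46.8 and 36.0 FPKM with TRV023 and 29.4, 15.2 and 10.5 with losartan (1.15, SE 0.31). The complement protease Cfd was at 115, 133 and 99.6 FPKM with TRV023 and 62.3, 83.3 and 37.5 with losartan (0.86, SE 0.29), and neither gene overlapped between the drugs.

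Cxcl14, a chemokine, had the smallest edgeR p among lower genes without overlap that have a gene symbol other than a clone, LOC or RGD number. It was at 15.98, 17.2 and 12.6 FPKM with TRV023, against 140, 42.9 and 39.8 with losartan and 98.5, 59.0 and 40.7 with vehicle. The TRV023 libraries were close together and below every other library, whereas Los_925 was more than 3 times the other losartan libraries. The fold was -2.28 (SE 0.43, 95% interval -3.27 to -1.29, DESeq2 adjusted p = 6.0e-05), and it lay between -2.58 and -1.54 when each library was left out. Relative to vehicle it was -2.11 (SE 0.30) with TRV023 and 0.17 (SE 0.48) with losartan. Cxcl14 lies on chromosome 17 from 11271210 to 11279229 in the tables' coordinates. Arpp19, named for a phosphatase inhibitor of mitosis, showed another pattern, with 1.099, 1.76 and 1.57 FPKM with TRV023, 1.34, 2.57 and 1.21 with losartan and 5.76, 10.4 and 13.8 with vehicle. Both drug groups lay below vehicle, and the fold between them was -0.26 (SE 0.63, interval -1.69 to 1.17). The tables' model of this gene spans only 118444306 to 118444644 on chromosome 8, and how reads of similar sequence elsewhere were assigned is not stated.

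**Figure D2:**
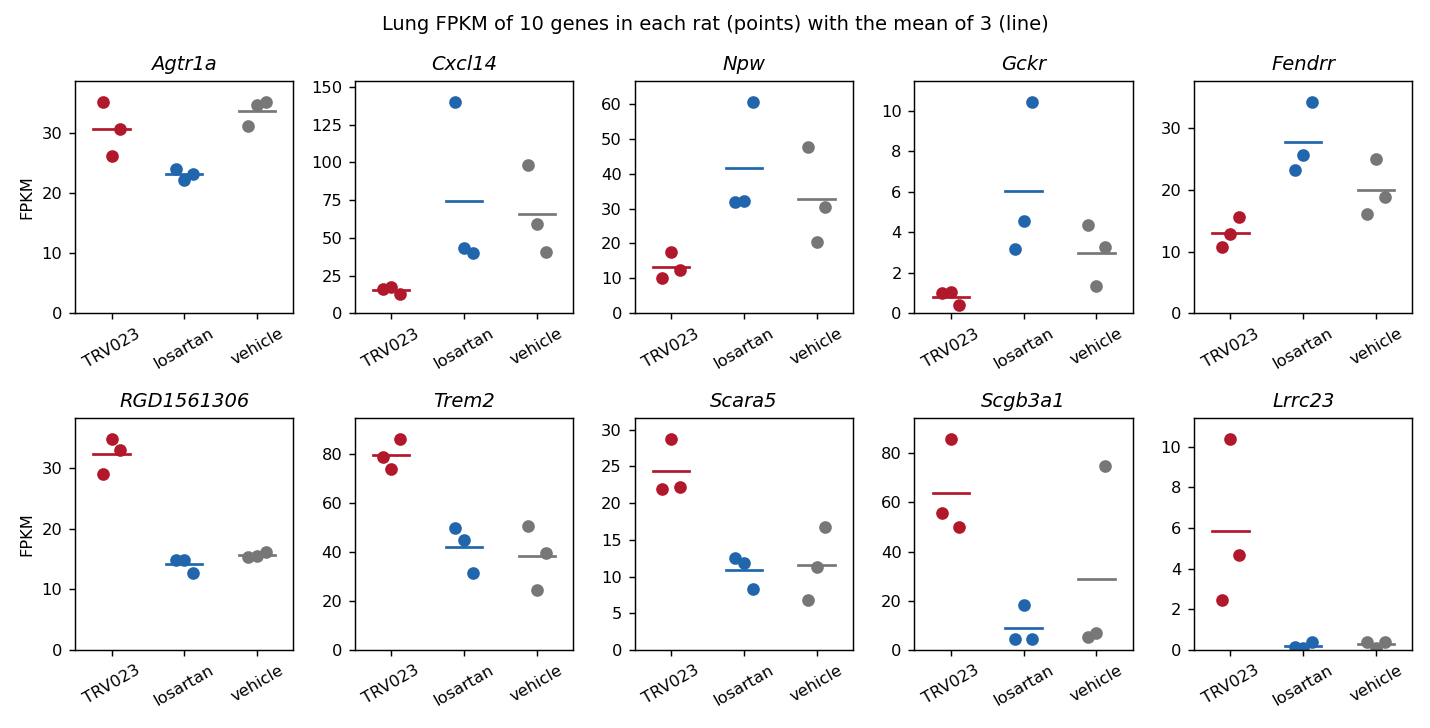
FPKM (y axis, from 0) of 10 genes in each rat, as points, with the mean of 3 rats as a line, in TRV023, losartan and vehicle lungs (x axis). For Cxcl14, Npw, Gckr and Fendrr all 3 TRV023 points lie below the losartan points, and for Agtr1a, RGD1561306, Trem2, Scara5, Scgb3a1 and Lrrc23 above them.

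The 12 genes with the smallest p on the lower side included secreted factors, a noncoding lung transcript and a mitotic gene. Npw, a neuropeptide precursor, was at 10.2, 17.6 and 12.4 FPKM with TRV023 and 32.0, 32.1 and 60.5 with losartan (-1.68, SE 0.32, DESeq2 adjusted p = 0.00091). Gckr, an inhibitor of glucokinase known mainly from liver, was at 1.01, 1.04 and 0.396 FPKM with TRV023 and 3.17, 4.56 and 10.4 with losartan (-2.94, SE 0.58, DESeq2 adjusted p = 0.00024). Fendrr, a noncoding RNA of lung mesenchyme transcribed next to Foxf1, was at 10.8, 12.9 and 15.6 FPKM with TRV023, against 23.3, 25.6 and 34.3 with losartan and 16.1, 24.99 and 18.9 with vehicle (-1.13, SE 0.25, DESeq2 adjusted p = 0.029). In all of these the highest TRV023 library was below the lowest losartan library. Vehicle lay above TRV023 and overlapped losartan for Fendrr and Npw, and for Gckr lay at 4.36, 1.33 and 3.26 FPKM.

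Tesc, a calcium-binding protein, was at 4.72, 3.86 and 2.15 FPKM with TRV023 and 5.64, 18.9 and 27.1 with losartan (-2.34, SE 0.60). Cytl1, a secreted cytokine-like protein, was at 1.04, 1.05 and 1.501 FPKM with TRV023 and 2.19, 6.27 and 10.5 with losartan (-2.46, SE 0.56). In both genes Los_925 lay just above the TRV023 libraries, and Los_964 and Los_965 far above. Pla2g2d, a secreted phospholipase, was at 22.2, 33.2 and 16.8 FPKM with TRV023 and 45.4, 87.4 and 53.2 with losartan (-1.44, SE 0.34). DESeq2 called these 3 genes (adjusted p = 0.022, 0.0047 and 0.015) and Pcdh17, a cadherin (-1.05, SE 0.21, adjusted p = 0.019). It did not call S100g, a calcium-binding protein (-1.06, SE 0.26), the interferon-induced tether Bst2 (-0.85, SE 0.21), the spindle protein Prc1 (-0.82, SE 0.21) or the Wnt inhibitor Wif1 (-0.60, SE 0.16).

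On the higher side the 12 genes included several of the airway epithelium. Lrrc23, a protein of the radial spokes of motile cilia, was at 2.48, 10.4 and 4.68 FPKM with TRV023, against 0.171, 0.0786 and 0.416 with losartan and 0.372, 0.105 and 0.404 with vehicle (4.63, SE 0.73, 95% interval 2.96 to 6.30, DESeq2 adjusted p = 8.7e-08). Scgb3a1, a secretoglobin of airway secretory cells, was at 55.7, 85.8 and 49.9 FPKM with TRV023 and 4.43, 18.1 and 4.50 with losartan (2.73, SE 0.60, DESeq2 adjusted p = 0.00074). In vehicle Scgb3a1 was at 5.45, 6.74 and 74.6 FPKM, so a single vehicle rat reached the TRV023 level. Bpifa5, a secreted lipid-binding protein of the BPI fold family, was at 16.8, 18.1 and 33.6 FPKM with TRV023 and 8.51, 5.83 and 9.30 with losartan (1.503, SE 0.31, DESeq2 adjusted p = 0.0077). In vehicle Bpifa5 was at 26.5, 21.2 and 12.7 FPKM, so the losartan libraries were the ones apart. Relative to vehicle it was 0.19 (SE 0.34) with TRV023 and -1.31 (SE 0.30) with losartan. Dync2li1, part of the motor that carries cargo inside cilia, was at 19.4, 22.9 and 19.7 FPKM with TRV023 and 13.4, 12.2 and 12.04 with losartan (0.68, SE 0.15).

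Scara5, a scavenger receptor of fibroblasts that takes up ferritin, was at 22.0, 28.7 and 22.2 FPKM with TRV023, against 12.5, 11.9 and 8.36 with losartan and 6.81, 11.4 and 16.7 with vehicle (1.11, SE 0.21, DESeq2 adjusted p = 0.0065). Cdh11, a mesenchymal cadherin, was at 20.8, 13.5 and 17.1 FPKM with TRV023, 10.4, 8.79 and 8.57 with losartan and 15.7, 13.7 and 19.7 with vehicle, so the losartan libraries were the ones apart (0.85, SE 0.19). Pf4, a platelet and macrophage chemokine of the study's list, was at 389, 251 and 245 FPKM with TRV023 and 168, 136 and 158 with losartan (0.90, SE 0.21). DESeq2 also called Clic6, a chloride channel protein (2.04, SE 0.40, adjusted p = 0.0018), and Galnt14, a glycosyltransferase (3.32, SE 0.66, adjusted p = 0.0012). It called Nol8, a nucleolar protein (3.79, SE 0.73, adjusted p = 0.00018), and a model of Exoc7, a subunit of the exocyst (1.61, SE 0.36, adjusted p = 0.015). The symbol Exoc7 is shared between joined gene models, and the values are those of a single model. Galnt14 and Nol8 were under 2.4 FPKM in every library, and losartan levels of Nol8 were 0.0985, 0.0378 and 0.122 FPKM, with vehicle at 1.16, 0.0899 and 0.960 FPKM. DESeq2 called 16 of the 24 genes named here, and over the alternatives run the highest adjusted p of each of these 16 lay between 0.99997 and 0.99998.

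Genes of mitosis, which encode kinesins, checkpoint kinases and other proteins of chromosome segregation, were the list with the lowest median. Over 79 genes tested the median was -0.75, with 76 below 0 and 3 above. At an unadjusted edgeR p under 0.05, 29 genes were lower (36.7%) and 0 higher, against 1.94% lower among all genes, and the groups did not overlap for 25 genes, all lower, 31.6% of the list against 4.1% of all genes. Over all genes 0 of the 79 passed in edgeR and 0 in DESeq2. Relative to the shared vehicle libraries the medians were -0.97 with TRV023 and -0.26 with losartan. In whole lung, fewer dividing cells and less of these transcripts per cell cannot be told apart.

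The 4 members with the smallest p were Prc1, which bundles microtubules of the central spindle, the kinesins Kif20b and Kif2c, and Cdca3, a trigger of mitotic entry. Prc1 was at 6.72, 7.24 and 8.37 FPKM with TRV023, against 12.7, 9.44 and 16.3 with losartan and 17.0, 16.5 and 16.1 with vehicle. Cdca3 was at 3.70, 4.07 and 4.82 FPKM with TRV023, 9.48, 5.73 and 9.22 with losartan and 11.45, 11.6 and 6.97 with vehicle. Kif2c was at 1.005, 1.31 and 1.36 FPKM with TRV023 and 2.80, 2.32 and 2.59 with losartan, and Kif20b at 0.485, 0.516 and 0.426 with TRV023 and 1.19, 0.804 and 1.32 with losartan. In each of the 4 genes Los_964 was the lowest losartan library and still lay above all TRV023 libraries. The folds were -0.82 (SE 0.21) for Prc1, -0.98 (SE 0.27) for Cdca3, -1.105 (SE 0.30) for Kif2c and -1.24 (SE 0.33) for Kif20b. Mki67, the proliferation marker, overlapped between the drugs, at 3.91, 4.97 and 3.10 FPKM with TRV023 and 6.34, 2.34 and 5.97 with losartan (-0.31, SE 0.32, interval -1.04 to 0.42).

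As a list, the mean log2 CPM relative to the 9 libraries was -0.70, -0.64 and -0.32 in the TRV023 libraries, 0.23, -0.43 and 0.52 in the losartan libraries and 0.63, 0.56 and 0.15 in the vehicle libraries. Los_964 thus lay within the TRV023 range, and Los_925 and Los_965 above it. Without Los_964 the median was -0.96 with 54 of 79 genes lower at an unadjusted p under 0.05, and without Los_965 it was -0.49 with 11 genes. Without Trv_917 it was -0.63 with 11 genes, without Trv_918 -0.68 with 13 genes and without Los_925 -0.75 with 18 genes. The share of all genes lower in each of these fits is not given here. These counts therefore cannot be set against the 1.94% of the full fit. DNA replication genes, which copy the genome before mitosis, had a smaller median of -0.24 over 50 genes, with 42 below 0. An unadjusted p under 0.05 was reached by 2 of them, both lower (4%, against 1.94% of all genes). Mcm4, of the replicative helicase, was at 5.80, 5.39 and 6.11 FPKM with TRV023 and 10.4, 6.55 and 8.41 with losartan (-0.58, SE 0.18), and the sliding clamp Pcna at 54.6, 47.8 and 56.3 with TRV023 and 71.5, 56.5 and 65.3 with losartan (-0.32, SE 0.14).

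**Figure D3:**
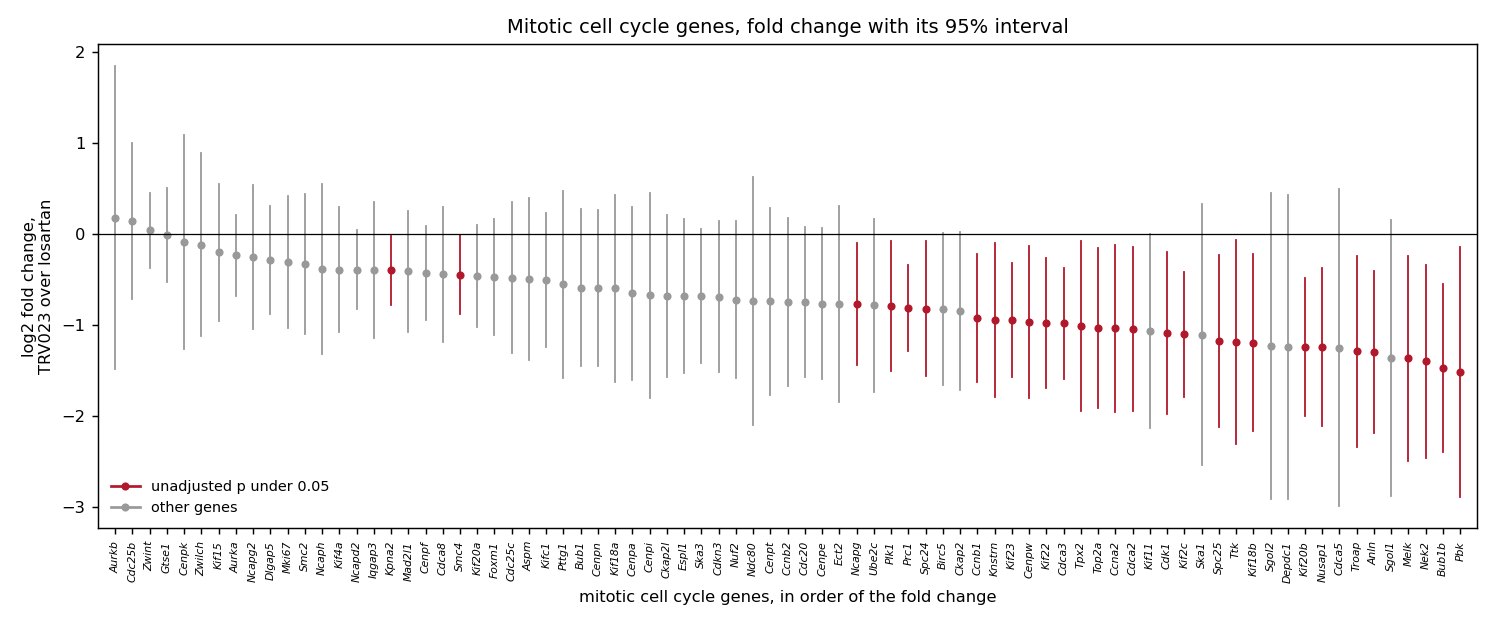
Log2 fold change of TRV023 over losartan (y axis) with its 95% interval for the 79 mitotic cell cycle genes tested, in order of the fold (x axis), red where the unadjusted edgeR p was under 0.05. The points of 76 genes lie below 0, and the median is -0.75.

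Promoters of mitotic genes are known for a cell cycle homology element, which the MuvB complexes bind, placed downstream of CCAAT boxes. The 120 bases before the start are shown for the 4 mitotic genes with the smallest p, read from RefSeq promoters on build GRCr8. Capitals mark TTTGAA or TTCGAA on either strand (TTCAAA on the other) and CCAAT on either strand (ATTGG on the other).
Prc1: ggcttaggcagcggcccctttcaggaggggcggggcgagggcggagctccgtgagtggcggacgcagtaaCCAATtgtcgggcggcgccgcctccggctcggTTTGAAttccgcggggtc
Kif20b: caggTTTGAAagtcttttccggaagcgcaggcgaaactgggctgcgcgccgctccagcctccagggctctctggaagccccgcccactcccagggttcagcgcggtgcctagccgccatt
Kif2c: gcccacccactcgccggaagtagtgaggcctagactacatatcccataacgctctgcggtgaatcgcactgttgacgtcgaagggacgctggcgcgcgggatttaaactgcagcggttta
Cdca3: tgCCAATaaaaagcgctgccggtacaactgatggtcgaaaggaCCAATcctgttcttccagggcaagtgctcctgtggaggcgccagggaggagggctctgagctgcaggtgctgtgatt

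The windows lie at chr1:143659361-143659480 (plus strand) for Prc1, chr1:241840896-241841015 (plus) for Kif20b, chr5:135899213-135899332 (minus) for Kif2c and chr4:159321083-159321202 (plus) for Cdca3. Prc1 has a CCAAT and then TTTGAA, whose first base is 18 bases before the start, Kif20b has TTTGAA alone, Cdca3 has 2 CCAAT boxes and Kif2c has neither in these letters. In the 250 bases before the start, 35 of 69 mitotic promoters matched (50.7%) held the homology element in these letters, against 17.3% of all 27457 promoters and 6 of 41 DNA replication promoters (14.6%). CCAAT was in 66.7% of the mitotic, 51.2% of the replication and 34.3% of all promoters, and both elements in 42.03%, 9.76% and 6.22%. A match of letters is a description of the sequence and does not show that a factor was bound in these lungs.

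The 13 proteins coded in mitochondrial DNA belong to the respiratory chain and its ATP synthase. All 13 transcripts were below 0, with a median of -0.62. Of these, 1 was at an unadjusted p under 0.05 (7.69%, against 1.94% lower among all genes). Mt-atp8, of the ATP synthase, was measured at 117, 124 and 171 FPKM with TRV023, against 131, 253 and 384 with losartan and 130, 205 and 156 with vehicle (-0.96, SE 0.37). As a list, Los_925 (-0.36) lay within the TRV023 range (-0.54 to 0.14) and Los_964 (0.40) and Los_965 (0.75) above it. No TRV023 rat has a number in the 96x series, against Los_964 and Los_965 and Veh_963, so number series and drug are partly confounded. Without the animals numbered 96x, which left Los_925 as the only losartan library, the median was 0.13 with 12 of 13 genes above 0. The nuclear subunits of the same respiratory chain had a median of -0.06 over 71 genes, and the cytosolic ribosomal proteins -0.06 over 84 gene models. Rps19, a ribosomal protein, was at 206, 286 and 190 FPKM with TRV023, against 298, 352 and 345 with losartan and 205, 178 and 187 with vehicle (-0.60, SE 0.19).

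Airway lists had higher medians with TRV023. The median of ciliated cell genes was 0.78, with 23 of 24 above 0, 9 higher (37.5%, against 2.26% of all genes) and 0 lower at an unadjusted p under 0.05. Spag6, of the central apparatus of the cilium, was at 5.92, 14.8 and 10.6 FPKM with TRV023, 2.81, 5.08 and 5.23 with losartan and 7.37, 5.84 and 10.8 with vehicle (1.19, SE 0.40). It was the single gene of the 24 whose groups did not overlap, and the list's mean level was -0.29, 0.78 and 0.48 with TRV023 and -0.98, 0.04 and -0.30 with losartan, so Trv_917 lay within the losartan range. The count of 9 was 0 without Trv_918, 1 without Los_925, 2 without Trv_930, 3 without Los_965, 14 without Los_964 and 15 without Trv_917. The share of all genes higher in each of these fits is not given here, so these counts cannot be set against the 2.26% of the full fit.

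Club and secretory cell genes had a median of 0.66 over 11 genes, with 5 higher at an unadjusted p under 0.05 (45.5%, against 2.26% of all genes), and the mean level of the list did not overlap between the drugs (0.14, 1.02 and 0.72 with TRV023, -0.85, 0.02 and -0.31 with losartan). Besides Scgb3a1 these were led by Cyp2a3, a P450 enzyme of the airway, at 5.73, 43.6 and 7.30 FPKM with TRV023 and 0.963, 2.11 and 2.23 with losartan (3.33, SE 0.80), and by the secreted protein Bpifb1, at 37.6, 70.6 and 68.2 with TRV023 and 36.8, 26.1 and 16.7 with losartan (1.11, SE 0.31). In vehicle the same list spanned -0.47, -1.41 and 1.13, wider than the gap between the drugs, and Cyp2a3 was at 0.478, 0.0618 and 39.0 FPKM. The summed FPKM of the 15 club and secretory gene models was 18343 to 32553 with TRV023, 10058 to 24437 with losartan and 13291 to 31380 with vehicle, and the part of airway content of the 10 mg pieces in Scgb3a1, Bpifa5, Lrrc23 and Dync2li1 was not tested.

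Alveolar and vascular cell lists had lower medians with TRV023. Alveolar type 2 cell genes had a median of -0.46 over 12 genes, with 4 lower at an unadjusted p under 0.05 (33.3%, against 1.94% of all genes). Lamp3, a lamellar body protein, was at 102, 120 and 76.8 FPKM with TRV023, 173, 145 and 123 with losartan and 205, 130 and 153 with vehicle (-0.60, SE 0.20). The median was -0.22 without Los_964 and -0.20 without the animals numbered 96x. Alveolar type 1 cell genes had a median of -0.10 over 12 genes with none at an unadjusted p under 0.05. All 20 endothelial genes were below 0, with a median of -0.34, 2 of them lower at an unadjusted p under 0.05 (10 percent of the list, against 1.94% of all genes), and the mean level of the list was -0.01, -0.26 and -0.13 with TRV023 and 0.10, 0.31 and 0.26 with losartan, without overlap.

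Among endothelial genes, the adrenomedullin receptor gene Calcrl was at 17.0, 16.2 and 11.8 FPKM with TRV023 and 29.0, 16.7 and 27.3 with losartan (-0.73, SE 0.21), and Ednrb, the endothelin receptor that clears endothelin, at 21.5, 22.3 and 20.7 with TRV023 and 32.0, 29.0 and 24.9 with losartan (-0.46, SE 0.14). Los_964 lay beside the TRV023 libraries for Calcrl, where the FPKM values overlap although the normalized CPM values do not, and Los_965 was nearest to them for Ednrb. Relative to vehicle the endothelial medians were -0.11 with TRV023 and 0.28 with losartan. In the BMP pathway, whose receptor gene Bmpr2 is mutated in heritable pulmonary hypertension, Bmpr2 was at 15.5, 17.2 and 13.8 FPKM with TRV023 and 22.1, 15.2 and 20.4 with losartan. In FPKM Los_964 lay within the TRV023 range, although the normalized CPM values did not overlap, and the fold was -0.35 (SE 0.15). The ligand Bmp5 was at 8.14, 12.3 and 11.2 FPKM with TRV023 and 6.83, 5.32 and 5.73 with losartan (0.78, SE 0.18), while the pathway as a whole had a median of -0.06 over 37 genes.

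The macrophage and neutrophil lists had medians above 0, and Los_965 was the lowest of the 9 libraries in all 3 of them. Lipid-associated macrophage genes had a median of 0.20 over 22 genes, with 18 above 0. The 3 higher at an unadjusted p under 0.05 (13.6%, against 2.26% of all genes) were Trem2, Ctsk and Apoe. Apoe, a lipid carrier, was at 1888, 2283 and 1970 FPKM with TRV023, against 1411, 1380 and 1053 with losartan and 899, 752 and 1788 with vehicle (0.63, SE 0.20). Ctsk, a lysosomal protease, was at 83.1, 111 and 60.6 FPKM with TRV023 and 43.8, 49.8 and 20.3 with losartan (1.105, SE 0.35). Without Los_965 the median of the list was 0.05, with 11 genes above and 11 below 0. Alveolar and resident macrophage genes had a median of 0.30 over 19 genes, with Cd163, a hemoglobin scavenger receptor, at 50.9, 24.7 and 34.6 FPKM with TRV023 and 5.77, 24.8 and 2.65 with losartan, so that Los_964 overlapped the TRV023 libraries.

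The median of neutrophil genes was 0.48 (23 tested) and was 0.11 without Los_965. Of the genes tested, 2 were higher at an unadjusted p under 0.05 (8.7%, against 2.26% of all genes). The defensins RatNP-3b, Np4 and Defa5, near-identical copies whose reads may be split between them, were high in Trv_918 and Trv_930 but not in Trv_917. RatNP-3b was at 0.246, 18.6 and 58.6 FPKM with TRV023, 2.51, 0.346 and 0.407 with losartan and 1.39, 12.2 and 12.8 with vehicle. Mast cell genes had a median of 0.22 over 14 genes, with 10 above 0 and 4 below. Those below included Mcpt2 (-1.32, SE 0.68) and Mcpt1l1 (-0.12, SE 0.50), both with overlapping groups. The tryptases Tpsb2 and Tpsab1, which are also close copies, were at 369, 294 and 332 and at 251, 320 and 309 FPKM with TRV023, against 289, 152 and 124 and 264, 127 and 102 with losartan (0.80, SE 0.28 and 0.81, SE 0.30). In FPKM Los_925 lay within the TRV023 range for Tpsab1, although the normalized CPM values did not overlap. The median of the mast cell list was -0.11 without Los_964 and 0.93 without Los_925.

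Erythroid genes had the highest median of all lists, 0.89, with all 15 above 0, but the libraries overlapped widely. The list's mean level was 0.69, 1.40 and -0.89 with TRV023 and -0.48, -0.89 and 0.45 with losartan, and its summed FPKM was 3349 to 20547 with TRV023 and 4079 to 9405 with losartan, and the median was 0.33 without Trv_918, with 11 of 15 genes above 0. Platelet and megakaryocyte genes had a median of -0.56 over 18 gene models. Of these, 3 were lower (16.7%, against 1.94% of all genes) and 1 was higher (5.56%, against 2.26%) at an unadjusted p under 0.05. Itga2b, the platelet integrin, measured 3.86, 4.02 and 4.54 FPKM with TRV023 and 6.28, 7.16 and 15.99 with losartan (-1.29, SE 0.36), in the direction opposite to Pf4. The platelet median was -0.21 without Los_965 and -0.06 without the animals numbered 96x. T and NK cell genes (median 0.07 over 27 genes), dendritic cell genes (-0.11 over 12) and B and plasma cell genes (-0.09 over 17) included 0, 0 and 1 gene at an unadjusted p under 0.05. That 1 gene was lower (5.88% of its list, against 1.94% of all genes).

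**Figure D4:**
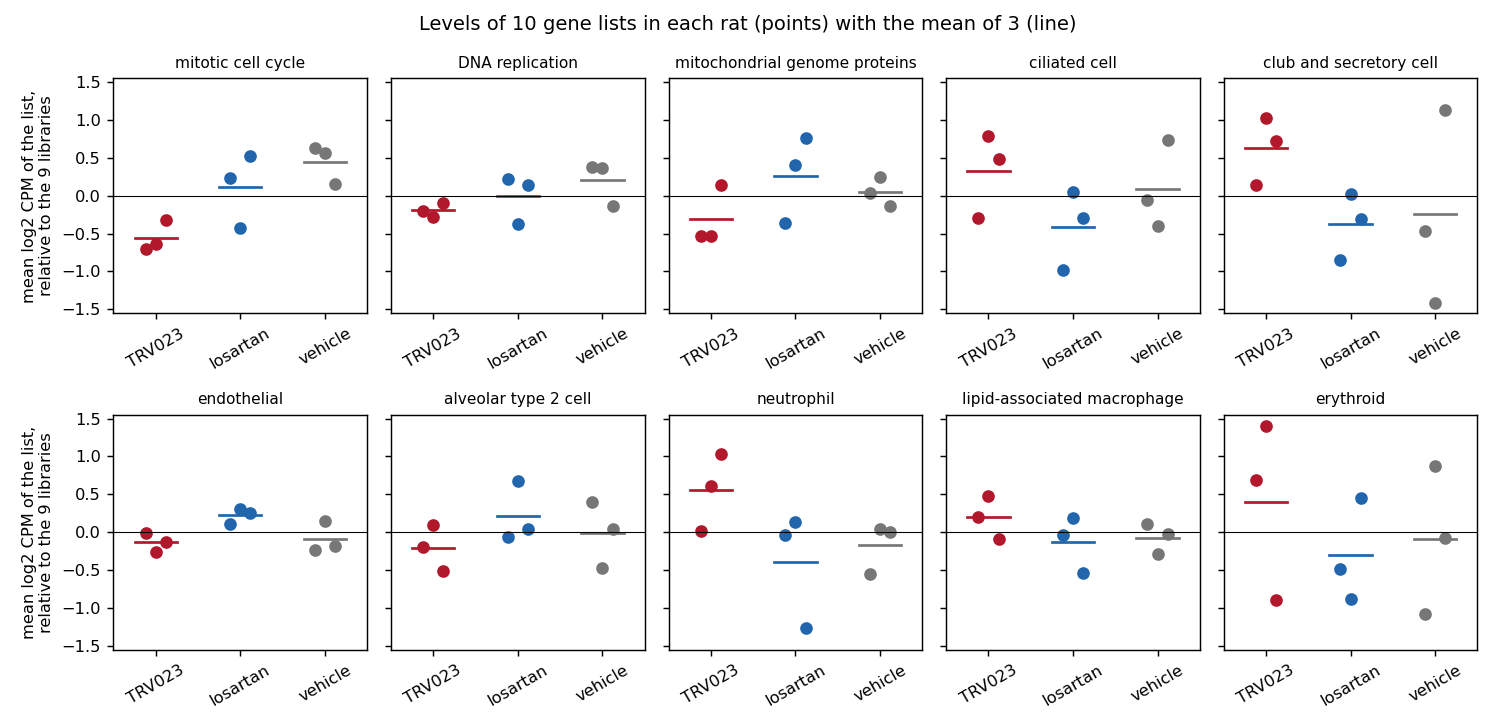
Mean log2 CPM of 10 gene lists in each rat relative to the 9 libraries (y axis), as points, with the mean of 3 rats as a line, in TRV023, losartan and vehicle lungs (x axis). TRV023 and losartan points do not overlap for club and secretory cells (TRV023 higher) and endothelium (TRV023 lower), and overlap for the other 8 lists.

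Matrix and contractile gene lists, of interest in vascular remodeling, had small medians. Collagen chains had a median of 0.19 over 34 genes and other matrix genes 0.08 over 36, with medians relative to vehicle of -0.04 and -0.18 with TRV023 and -0.22 and -0.25 with losartan. In each matrix list 1 gene was higher and 1 lower at an unadjusted p under 0.05. That is 2.94% each of collagens and 2.78% each of other matrix genes, against 2.26% and 1.94% of all genes. Vcan (1.25, SE 0.48, interval 0.16 to 2.34) and Fbln5 (-0.58, SE 0.24, interval -1.12 to -0.04) had the smallest p of the other matrix genes, with overlapping groups. Col17a1, a hemidesmosomal collagen of epithelium, was at 1.33, 1.72 and 0.990 FPKM with TRV023 and 3.58, 3.27 and 1.98 with losartan (-1.18, SE 0.31), opposite to the median of its list. Spp1, a matricellular cytokine, was at 225, 269 and 206 FPKM with TRV023, 147, 179 and 50.9 with losartan and 284, 267 and 230 with vehicle (0.83, SE 0.41). The median of smooth muscle contractile genes was -0.15 (19 tested), with none at an unadjusted p under 0.05, with Myh11, the smooth muscle myosin, at 80.0, 67.9 and 54.1 FPKM with TRV023 and 59.9, 82.4 and 110 with losartan. Acta2 was not analysed here.

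Metalloproteinases and their inhibitors had a median of 0.23 over 27 genes. Here 1 gene was higher and 1 lower at an unadjusted p under 0.05 (3.7% each, against 2.26% and 1.94% of all genes). Mmp2, a gelatinase, was at 378, 266 and 353 FPKM with TRV023 and 289, 205 and 115 with losartan, with Trv_918 below Los_925 (0.68, SE 0.31, interval -0.03 to 1.39). Its activator Mmp14 was at 136, 114 and 141 FPKM with TRV023 and 110, 97.3 and 56.2 with losartan (0.53, SE 0.25), without overlap. Timp1, their inhibitor, was at 436, 159 and 280 FPKM with TRV023 and 202, 306 and 117 with losartan (0.43, SE 0.44). Mmp3 was at 1.31, 0.371 and 1.01 FPKM with TRV023 and 0.137, 0.118 and 0 with losartan (3.31, SE 0.94), so its fold rests on few reads. Interferon-stimulated genes (median 0.06 over 38 genes), chemokines and their receptors (0.10 over 48), p53 targets (0.06 over 24), the integrated stress response (0.20 over 22), glycolysis and hypoxia genes (-0.11 over 29) and endothelin, nitric oxide and prostacyclin genes (-0.02 over 27) were all within 0.2 of 0.

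**Figure D5:**
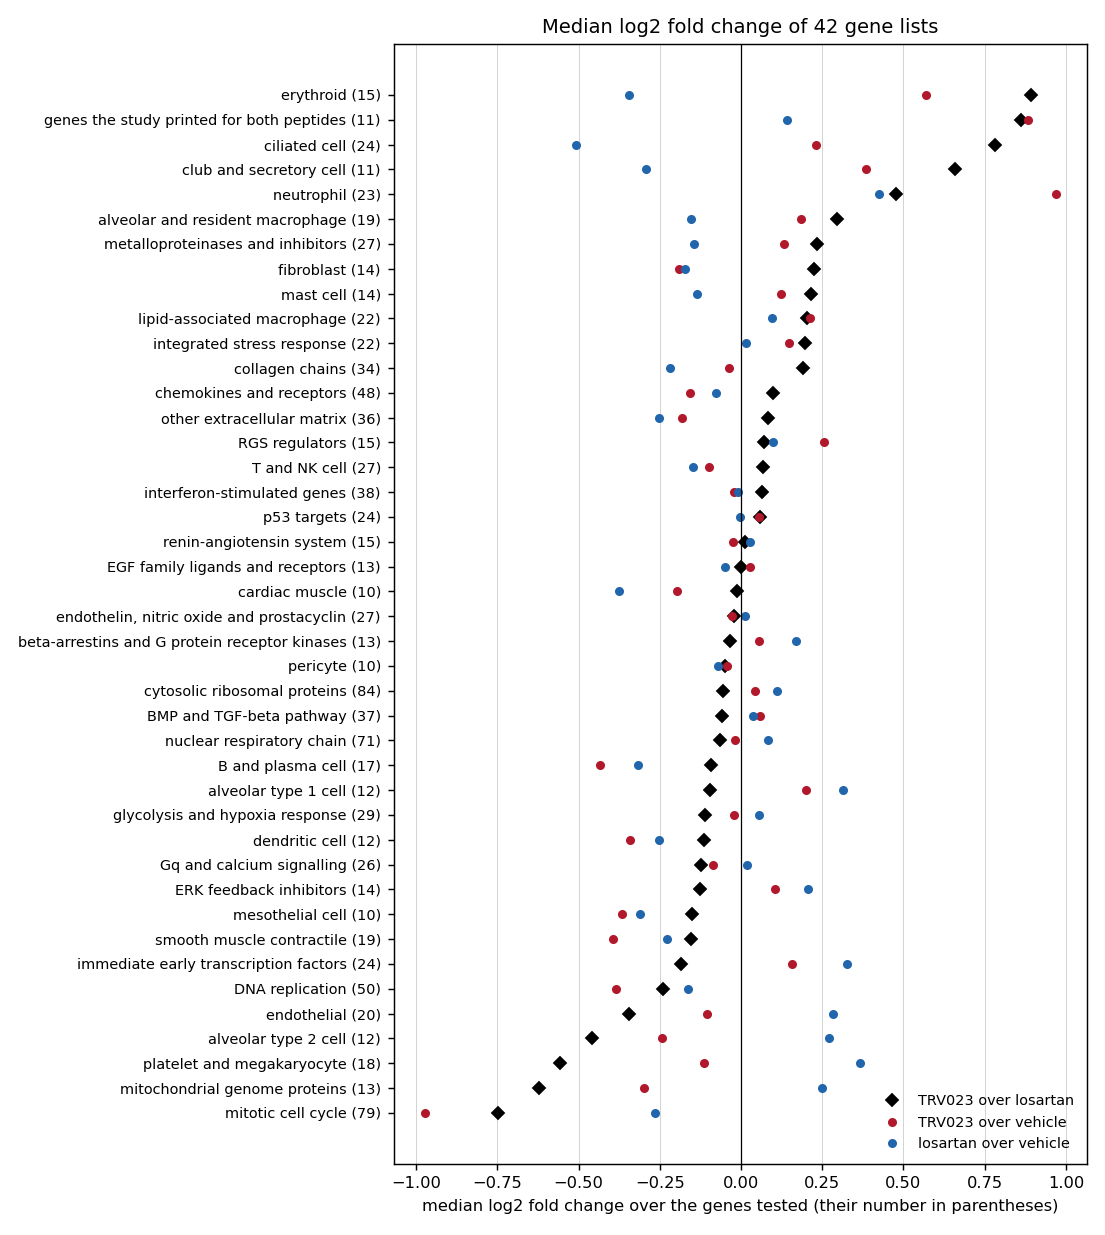
Median log2 fold change (x axis) of each of the 42 gene lists (y axis, with the number of genes tested), as a black diamond for TRV023 over losartan and as red and blue points for TRV023 and losartan over the vehicle libraries that they share. The diamonds run from -0.75 for mitotic cell cycle genes to 0.89 for erythroid genes.

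Outside the joined genes, 996 genes were listed only in the TRV023 table and 794 only in the losartan table, 5.36% and 4.32% of each. Each table lists a gene only if at least 1 of its first 2 drug libraries had a read, so a gene missing from a table can still have had reads in the last library, and no value was filled in. Most of these genes were at the edge of detection, with a median of 3 counts summed over 3 libraries in each set, and 8 genes of each set had more than 30. No comparison between the drugs was made for them.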

How the data were processed

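Lung RNA of 12 MCT rats was sequenced by the study, and 6 libraries (3 TRV023, 3 losartan) entered the comparison, with the 3 vehicle libraries as a further level. The authors deposited a read count per gene and an FPKM value per gene for each library, in 1 table per drug that also holds the vehicle libraries. No source used here names the aligner, counting tool, strand setting, genome build or annotation. The tables also hold columns of the authors' own fold changes and p-values, which were not used. Both tables hold the same vehicle counts. All columns of per-sample values were mapped to a sample.

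Genes of both tables were joined by gene ID, and absent genes were not set to 0. Counts were tested with edgeR 4.0.16 (R 4.3.3; default expression filter, TMM scaling, quasi-likelihood F test, Benjamini-Hochberg adjustment over all genes tested, threshold 0.05). Alternatives were DESeq2 1.42.0, limma 3.58.1 (voom, and log2(FPKM + 1) for genes with a mean of at least 1 FPKM), other scalings and filters, joint fits with the other libraries and each library left out. The edgeR and DESeq2 tests were tested on simulated data. Levels are given in FPKM, and list levels as the mean log2 CPM (prior count 2) relative to 9 libraries. P-values measure the spread between these rats only, as the labels give 1 library per animal and no other replicate level. Named genes were Agtr1a and the signaling lists, the genes the study printed, the 12 genes per direction with the smallest p among non-overlapping genes with a mean of at least 1 FPKM in either group and a symbol that is no clone, LOC or RGD number, and up to 4 members with the smallest p per list described. Some members of the renin-angiotensin list are counted but not reported here by name. Members and lists were chosen with earlier results of these data known. Figures were drawn with matplotlib 3.10.9.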

Additional observations from a re-analysis of the deposited data

Results flagged for a closer look

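Among 204 named genes tested, 2 (0.98%) had TRV023 and losartan on opposite sides of every vehicle library, as did 17 of all 15124 genes tested (0.112%). Many named genes were picked on these same values, so a larger share among them follows from the selection and is no result. The difference of the drug effects was not tested apart from the direct comparison. Sdc1, a heparan sulfate proteoglycan of epithelium and plasma cells, was at 92.5, 91.5 and 98.1 FPKM with TRV023, 119, 152 and 117 with losartan and 108, 105 and 103 with vehicle, a log2 fold change of -0.51 between the drugs. RGD1561306 lay above every vehicle library with TRV023 and below every vehicle library with losartan, with a log2 fold change of 1.15 between the drugs.

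Outside the joined genes, Klri2, a lectin-like receptor of natural killer cells listed only in the TRV023 table, had 17, 10 and 15 counts with TRV023 (42 in all), against 0, 3 and 3 with vehicle. Faah, which degrades the lipid mediator anandamide and was listed only in the losartan table, had 15, 11 and 30 counts with losartan (56 in all), against 8, 10 and 0 with vehicle.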

How the results depend on the processing

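The count of 0 genes called by edgeR became 26 with DESeq2, 1 without the animals numbered 96x and 1 with the number series as a covariate over 9 libraries (Cxcl14 in both). No TRV023 rat is numbered 96x, so the first leaves Los_925 as the only losartan library, assumed to vary like the others, and the second leans on it. Los_925 had the highest Cxcl14 of all 9 libraries. It lay between 0 and 2 when each library was left out, with 2 genes without Los_964, 1 without Trv_917 and 1 without Trv_930, and was 0 under the other alternatives run. The DESeq2 count lay between 25 and 251 when each library was left out, an alternative chosen after seeing the data, and was 251 without Los_964, 106 without Los_925, 53 without Trv_918 and 42 without Trv_917. Of 504 list medians under alternatives, 433 kept their sign, and 19 of 42 lists kept it in every alternative run. All 24 genes with the smallest p kept their sign in every alternative run. They were picked for groups that do not overlap in these same libraries, so this follows largely from the selection and is no evidence of stability. Of 3847 values of all named genes, 84 changed sign without being called. No paired analysis was possible because the groups share no replicate number in the labels. With 3 rats per group and a median interval half-width of 0.58 on the log2 scale before adjustment, an adjusted call needed a change well above that size for a typical gene.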
